A study of Arabidopsis thaliana with 3 samples.

Results

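RD29A, RD29B, COR15A, COR15B, KIN1, KIN2, RD22 and RD20 are 8 Arabidopsis genes long used as readouts of drought, cold and abscisic acid signalling. They were chosen by name and found on the arrays through their locus codes: AT5G52310 (RD29A), AT5G52300 (RD29B), AT2G42540 (COR15A), AT2G42530 (COR15B), AT5G15960 (KIN1), AT5G15970 (KIN2), AT5G25610 (RD22) and AT2G33380 (RD20). All 8 had a spot. They account for 8 of 26017 loci and 10 of 29234 gene spots, with 3 spots for COR15A and 1 for each of the others. Every one of the 10 spots lay above its local background in both channels of all 3 arrays. In the RefSeq annotation of assembly GCF_000001735.4 (TAIR10.1), the RD29, COR15 and KIN genes form 3 neighbouring pairs, each with 0 genes annotated between its members.

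The study set leaves of a transgenic line, labelled AhNF-YC-OE, against wild type, both in the Col-0 ecotype, on 2-colour oligonucleotide arrays. Rosette leaves came from 5-week-old plants kept at 22 °C (days of 16 h of light, nights of 8 h) in 3 states, which were normal growth, 5 days without water (water stress) and recovery. The recovery leaves were taken 24 h after rewatering of plants that had been without water for 8 days, so they did not follow from the sampled 5-day plants. Each state had 1 array, with AhNF-YC-OE in the Cy5 channel and wild type in the Cy3 channel, and the dyes were never exchanged. The transgene's promoter, the number of independent lines and the number of plants behind each RNA are unknown here. NF-YC is the name of a family of subunits of the CCAAT-binding transcription factor NF-Y.

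When water is short or temperature drops, Arabidopsis leaves switch on genes for hydrophilic, largely disordered proteins that help to protect membranes and enzymes. Signals reach these genes along an abscisic acid branch, in which ABF factors bind ABRE elements and MYC and MYB factors act on RD22, and along a branch in which CBF and DREB2 factors bind DRE elements. The RD29A promoter is known to carry both kinds of element, whereas RD29B depends mainly on ABRE elements and abscisic acid. COR15A and COR15B encode related chloroplast proteins that protect membranes during freezing, and KIN1 and KIN2 encode small hydrophilic proteins induced by cold, drought and abscisic acid. RD22 encodes a protein with a BURP domain, and RD20 encodes a calcium-binding caleosin with peroxygenase activity.

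With 1 array a state there is no spread between plants, no difference was tested, and a dye bias of a probe cannot be told apart from a genotype difference. A value is called here when it is at least 2-fold, which is 1 in size on the log2 scale. Repeated spots give a measure of spread within an array. Whether spots with the same transcript code carry the same probe sequence was not checked. The spread between such spots may therefore include differences between probes. Among 22 control features printed on 236 spots, the median SD of the log2 ratio was 0.1 (normal growth), 0.148 (water stress) and 0.127 (recovery). Among 1464 pairs of spots of the same transcript, the difference of the log2 ratio had a 95th percentile of 0.622, 0.804 and 0.547. The 510 spots annotated as empty were brighter under normal growth, where their 95th percentile was 4412 units in AhNF-YC-OE and 5668 in wild type, than on the other 2 arrays, where it lay between 143.4 and 400.1. The labelled tissue was checked with 6 leaf, 4 root, 4 seed and 3 flower markers. The leaf markers had a median brightness between percentiles 25.4 and 38.6 of gene spots over the 6 channels, and the root markers between percentiles 64.0 and 73.2. RCA (Rubisco activase) stood at or above percentile 80.4 in every channel, and LHCB1.1 (a light-harvesting protein) at or below percentile 21.5. PSAD1, another leaf marker, fell to percentile 3.5 in wild type in recovery. Of the root markers, IRT1 stood at or above percentile 83.1 and CASP1 at or above 80.9 in every channel, while PHT1;1 fell to 29.0. Medians of the seed markers lay between percentiles 45.2 and 59.2 and those of the flower markers between 37.3 and 51.4. The seed marker CRU3 stood at or above percentile 75.2 in every channel, while SESA1 fell to 0.0. The match between the annotated names and the printed probes was not tested.

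The first comparison asked whether the 8 genes differed between AhNF-YC-OE and wild-type leaves in the same state. None of them was 2-fold apart on any array. RD29A was the member with the highest ratio under normal growth and under water stress, at 0.61 and 0.60 on the log2 scale (1.53- and 1.52-fold higher in AhNF-YC-OE), and it stood at 0.25 (1.19-fold) in recovery. KIN1 had the lowest ratio of the 8 under water stress, −0.61, and RD20 the lowest under normal growth, −0.33. All other ratios of the 8 genes lay between −0.31 and 0.30. In RNA of whole leaves, fewer cells of a type and less RNA per cell cannot be told apart.

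Among all genes, calls were rare on these arrays. Under normal growth 0 of the 8 genes were called in either direction, beside 0.0923% of 26009 genes called higher in AhNF-YC-OE and 0.00769% called lower. Under water stress the shares were 0.488% higher and 0.342% lower of 26011 genes, and in recovery 0.0538% higher and 0.388% lower of 26006 genes, again against 0 of the 8. The median ratio of the 8 genes was −0.01, −0.08 and −0.01, and that of all genes −0.01, 0.00 and 0.00.

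**Figure D1:**
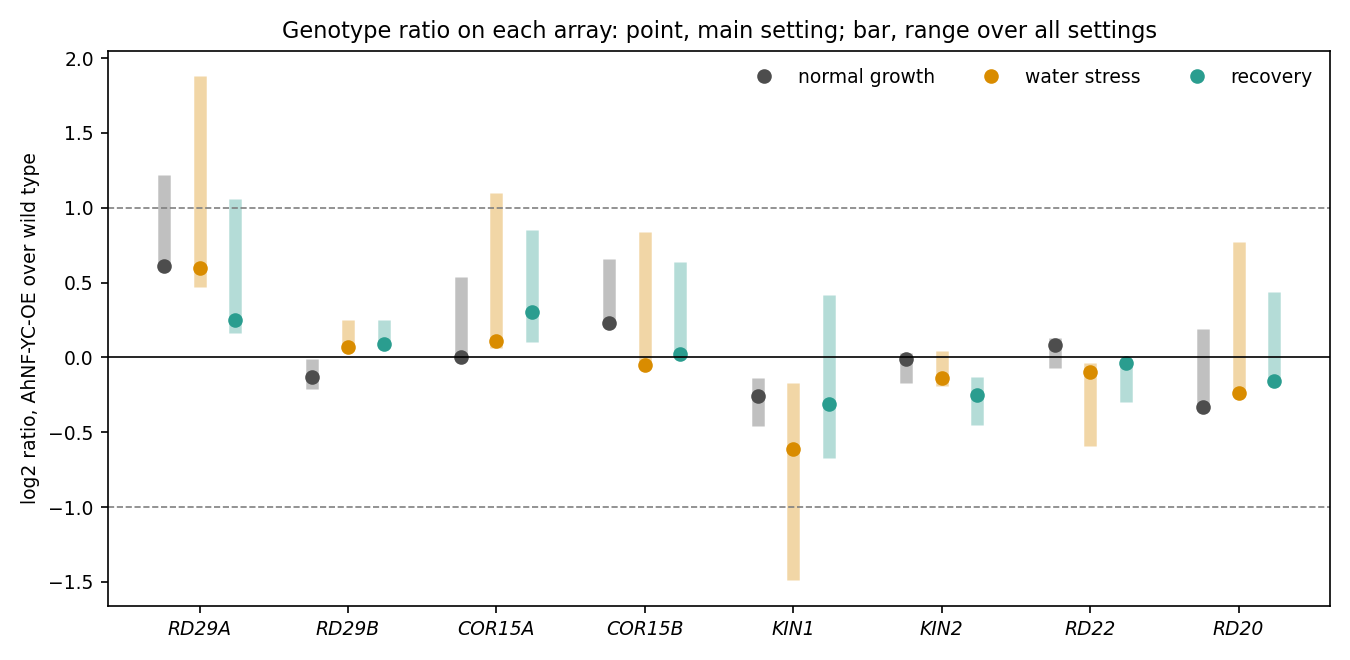
The vertical axis is the log2 ratio with AhNF-YC-OE on top and wild type below, drawn for each of the 8 genes on the 3 arrays (normal growth, water stress, recovery). Points give the main setting, bars span the main setting and its alternatives, and dashed lines mark 2-fold. RD29A has its points at 0.61, 0.60 and 0.25 and is the only gene whose bars stay above 0 on every array. The bars reach past 2-fold for RD29A, COR15A and KIN1.

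RD29A, which encodes a hydrophilic protein of the drought and cold response, was read at 49399, 61126 and 49355 scanner units in AhNF-YC-OE under normal growth, water stress and recovery, against 27313, 28921 and 34467 units in wild type. The AhNF-YC-OE reading was above the wild-type reading on every array. After normalization, which brings the channels onto a shared log2 scale, RD29A stood at 15.31, 15.73 and 15.46 in AhNF-YC-OE and at 14.69, 15.13 and 15.21 in wild type. The 3 levels of a genotype come from 3 states on 3 arrays and are not replicates. On each array the RD29A level was higher in AhNF-YC-OE, and the gap was narrowest in recovery. Its ratio was higher than that of 98.9%, 98.3% and 93.2% of the genes on the 3 arrays and lay outside the range of the middle 95% of genes under normal growth (−0.416 to 0.48) and water stress (−0.651 to 0.526), though inside it in recovery (−0.504 to 0.331). In the authors' deposited table the log2 ratio of RD29A was 0.70, 0.47 and 0.16.

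The RD29A ratio was positive in 7 of 7 settings on each array, and its size depended on the setting. With each array centred on its median in place of an intensity-dependent curve, the ratio was 1.22, 1.88 and 1.06. The RD29A spot was among the brightest, at rank 310, 11 and 172 from the top of 29234 gene spots in AhNF-YC-OE, and at rank 3565, 917 and 485 in wild type. Across the brightest 5% of spots (1462 spots) the median-centred ratio was itself 0.65, 1.19 and 0.78, against 0.00, 0.04 and 0.03 after the curve. Its reading under water stress, 61126 units, was close to the highest value of that channel, 65535, and whether pixels of the spot were saturated was not tested. The main ratios of all 8 genes, RD29A included, were smaller in size than the 95th percentile of the difference between a pair of spots of the same transcript.

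RD29B, the neighbour of RD29A on the chromosome, was read at 3730, 1867 and 2157 units in AhNF-YC-OE and at 5536, 2726 and 2745 units in wild type in the same order of states. Its normalized levels were 10.98, 11.75 and 11.80 in AhNF-YC-OE, against 11.10, 11.68 and 11.71 in wild type, and the genotypes interleaved. The ratios were −0.13, 0.07 and 0.09. Under normal growth the spot was brighter than 94.3% of the empty spots in AhNF-YC-OE and 94.7% in wild type. The SD between its pixels was then 4190 units in AhNF-YC-OE and 6447 in wild type, larger than the readings themselves. Other spots were uneven on this array too. In AhNF-YC-OE the pixel SD was 23904 units for COR15B, 20380 for the brightest COR15A spot and 16498 for RD20. For RD29A it was 13378 units there and 15316 in recovery. How far such unevenness affects the ratios or the changes from normal growth was not tested. The RD29A ratio exceeded the RD29B ratio by 0.74, 0.53 and 0.16 on the log2 scale, and over the settings this difference ranged from 0.71 to 1.43, from 0.31 to 1.63 and from −0.09 to 0.87.

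COR15B was read at 29662, 21585 and 25570 units in AhNF-YC-OE and at 24241, 20885 and 23903 units in wild type. Normalized, it stood at 14.37, 14.49 and 14.75 in AhNF-YC-OE and at 14.13, 14.54 and 14.74 in wild type. Only under normal growth were the genotypes apart by more than 0.1, with a log2 ratio of 0.23, and the ratios under water stress and recovery were −0.05 and 0.02.

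COR15A has 3 spots, which were far apart in brightness. The brightest, which represents the gene in all counts, was read at 34783, 28383 and 22143 units in AhNF-YC-OE, against 30859, 22953 and 17891 units in wild type. The second was read at 954, 198 and 242 units in AhNF-YC-OE, against 1338, 512 and 419 units in wild type. The third was read at 1767, 166 and 177 units in AhNF-YC-OE, against 2377, 318 and 298 units in wild type. The first spot and the third carry the same transcript code and the second spot another transcript of the locus, so transcript form and brightness did not go together. Such spread was common: 1926 loci had several spots, and the median range of their levels was 10.8-, 9.7- and 9.8-fold on the 3 arrays.

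The COR15A ratio at the brightest spot was 0.00, 0.11 and 0.30. At the second spot it was 0.03, 0.10 and 0.02, and at the third 0.07, 0.75 and 0.15. All these values were at or above 0, and none reached 2-fold. The highest, at the third spot under water stress, came from readings of 166 units in AhNF-YC-OE and 318 in wild type, which were brighter than 93.5% and 93.9% of the empty spots.

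**Figure D2:**
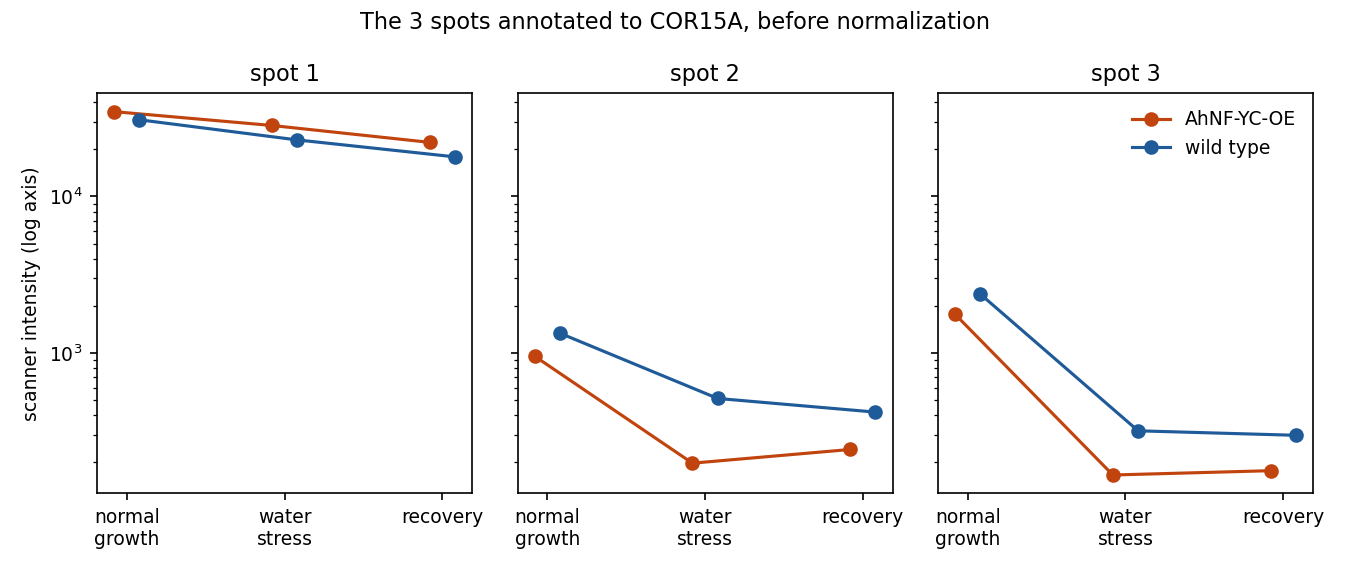
Scanner intensity, on a log axis, of the 3 spots annotated to COR15A in AhNF-YC-OE and wild-type leaves under normal growth, water stress and recovery; lines join the readings of a genotype. The first spot reads between 17891 and 34783 units throughout, while the third drops to 166 units in AhNF-YC-OE and 318 in wild type under water stress.

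KIN1 was dim in most channels. It was read at 115, 116 and 165 units in AhNF-YC-OE, against 177, 560 and 385 units in wild type. Under normal growth these readings were brighter than only 53.7% of the empty spots in AhNF-YC-OE and 62.5% in wild type, and under water stress than 91.8% and 95.7%. Normalized levels were 6.98, 7.97 and 8.18 in AhNF-YC-OE and 7.24, 8.58 and 8.50 in wild type, with AhNF-YC-OE lower on each array. The ratios were −0.26, −0.61 and −0.31. Under water stress KIN1 reached −1.49 with median centring and −0.17 at the other end of the settings, and in recovery its sign turned in 2 of 7 settings, the authors' deposited table giving 0.42.

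KIN2, the other gene of this pair, was read at 662, 727 and 338 units in AhNF-YC-OE and at 945, 1438 and 665 units in wild type. Its normalized levels, 8.81, 10.54 and 9.19 in AhNF-YC-OE, against 8.83, 10.68 and 9.44 in wild type, followed each other closely. The ratios were −0.01, −0.14 and −0.25.

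RD22, the BURP domain gene, was read at 710, 257 and 274 units in AhNF-YC-OE and at 950, 669 and 487 units in wild type. After normalization the genotypes were within 0.1 of each other on all 3 arrays: 8.91, 9.13 and 8.92 in AhNF-YC-OE, against 8.82, 9.23 and 8.96 in wild type. Its ratios were 0.08, −0.10 and −0.04. Under normal growth the RD22 reading was brighter than 84.7% of the empty spots in AhNF-YC-OE and 84.5% in wild type.

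RD20, the caleosin, was read at 29522, 25728 and 22612 units in AhNF-YC-OE and at 33388, 26240 and 24170 units in wild type. The normalized level was lower in AhNF-YC-OE on each array, at 14.47, 14.65 and 14.60, against 14.80, 14.89 and 14.76 in wild type. The ratios were −0.33, −0.24 and −0.16, all within the middle 95% of genes. Their sign turned under median centring, which gave 0.19, 0.77 and 0.44, so no direction is given for RD20.

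**Figure D3:**
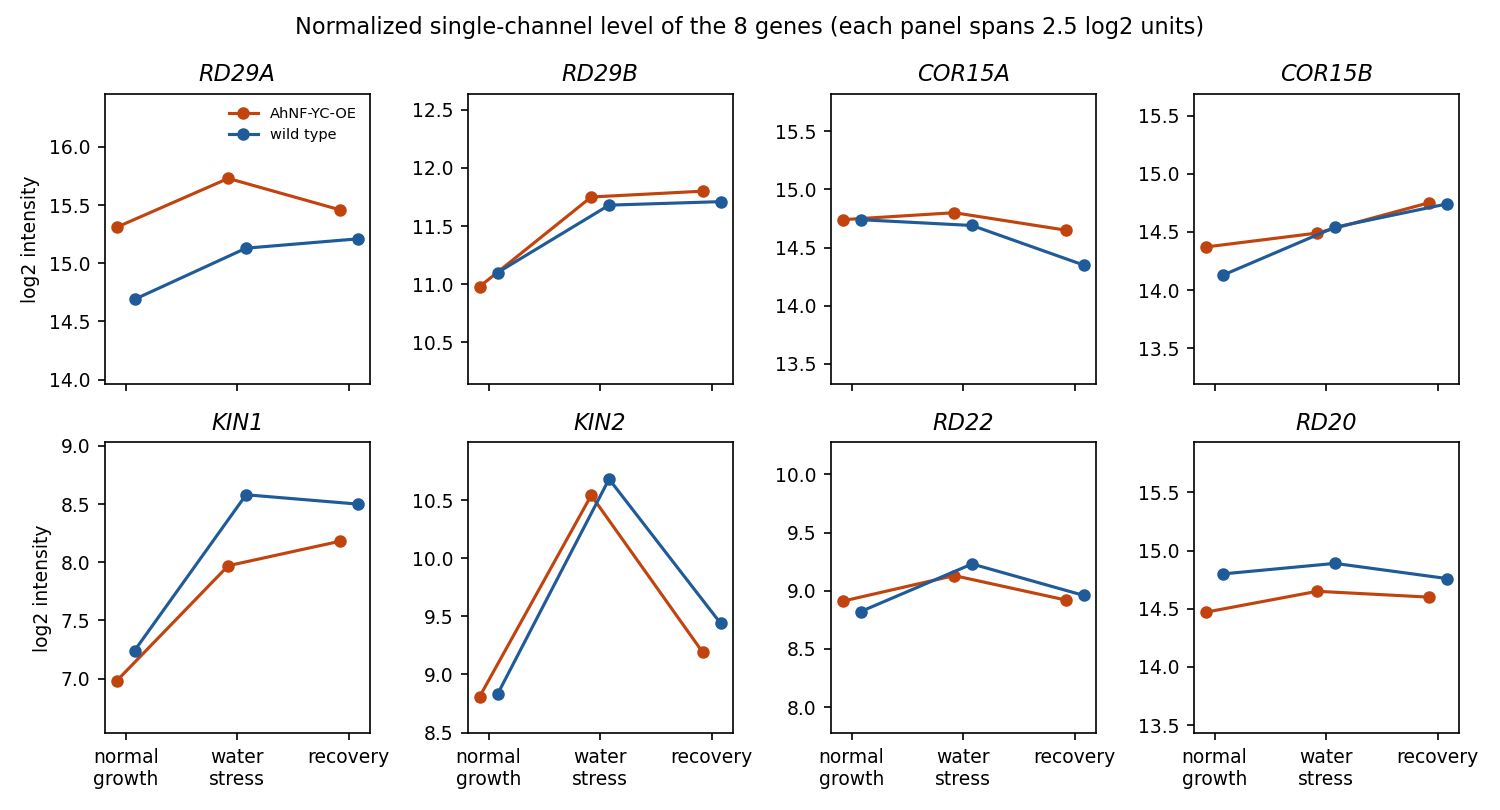
Normalized log2 intensity of the 8 genes, 1 panel each, in AhNF-YC-OE and wild-type leaves under normal growth, water stress and recovery; each point is 1 channel of 1 array and each panel spans 2.5 log2 units around its own gene. RD29A is higher in AhNF-YC-OE in all 3 states, RD20 is lower (its sign turns under median centring), and KIN2 peaks under water stress at 10.54 in AhNF-YC-OE and 10.68 in wild type.

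The next comparison followed each genotype from state to state, which is a comparison between arrays and rests on how the channels were scaled to each other. KIN2 had the highest water stress over normal growth value of the 8 in both genotypes, 1.73 in AhNF-YC-OE (3.31-fold) and 1.86 in wild type (3.62-fold). KIN1 stood at 0.98 in AhNF-YC-OE (1.98-fold) and 1.34 in wild type (2.53-fold). RD29B was at 0.77 and 0.58 and RD29A at 0.43 and 0.44 in AhNF-YC-OE and wild type. COR15B gave 0.12 in AhNF-YC-OE and 0.41 in wild type, and RD22 0.23 and 0.41. RD20, with 0.18 and 0.09, and the brightest COR15A spot, with 0.06 and −0.05, were close to no change.

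Among the 8 genes, 1 was at least 2-fold higher under water stress in AhNF-YC-OE (KIN2), where 13.0% of 26015 genes were, and 2 in wild type (KIN2 and KIN1), where 15.7% of 26014 genes were. None of the 8 was 2-fold lower, as were 13.1% of all genes in AhNF-YC-OE and 15.0% in wild type. With so many genes past 2-fold, these counts are no result about the 8 genes. None of the 8 values lay outside the middle 95% of genes. The median of the 8 was 0.33 in AhNF-YC-OE and 0.43 in wild type, beside medians over all genes of 0.05 and 0.09. These calls start from normal growth readings within the range of the empty spots: the KIN2 spot was then brighter than 83.7% of them in AhNF-YC-OE and 84.5% in wild type, and the KIN1 spot than 62.5% in wild type.

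Scaling each channel to its median in place of the array curve moved the median over all genes to 0.783 in AhNF-YC-OE and 0.945 in wild type. Relative to the median over all genes, KIN2 was higher by 1.24 to 1.83 in AhNF-YC-OE and by 1.20 to 1.94 in wild type over all settings. KIN1 was higher by 0.92 to 2.68 in AhNF-YC-OE and by 1.25 to 2.70 in wild type. RD29A stayed positive on this relative scale, at 0.29 to 1.44 in AhNF-YC-OE and 0.35 to 0.73 in wild type. RD29B did not: it ranged from −0.24 to 0.73 in AhNF-YC-OE and from −0.40 to 0.50 in wild type. COR15B was positive relative to the median in both genotypes, at 0.06 to 0.67 in AhNF-YC-OE and 0.31 to 0.43 in wild type. COR15A ran from −0.82 to 0.84 and from −1.12 to 0.20, so its direction was not settled in either genotype. The same holds for RD22 in AhNF-YC-OE, at −0.36 to 0.20, and for RD20 in wild type, at −0.12 to 0.30.

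The COR15A spots disagreed on this change. In AhNF-YC-OE the water stress over normal growth value was 0.06 at the brightest spot, −0.48 at the second and −1.50 at the third. In wild type it was −0.05, −0.56 and −2.17. The third spot was thus past 2-fold lower in both genotypes while the first was flat, and no direction is given for the gene. Under normal growth the second spot was brighter than 87.5% of the empty spots in AhNF-YC-OE and 87.3% in wild type. The third was then brighter than 91.8% of them in both genotypes, and under water stress than 93.5% and 93.9%.

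**Figure D4:**
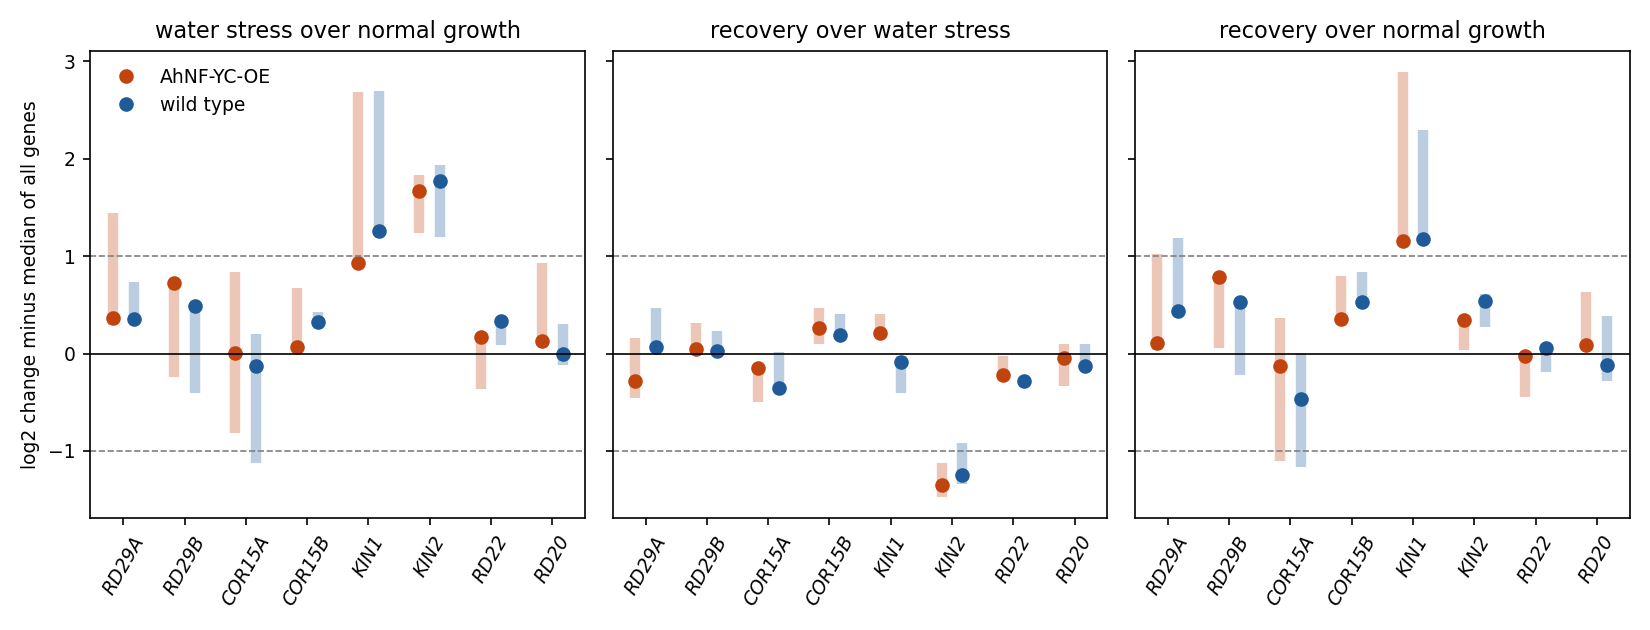
Changes of the 8 genes between states in AhNF-YC-OE and wild-type leaves, in log2 units after subtracting the median over all genes; points are the main setting, bars span all settings and dashed lines mark 2-fold. KIN2 has its points above the 2-fold line for water stress over normal growth and below it for recovery over water stress in both genotypes, and KIN1 has its points above it for recovery over normal growth.

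In recovery leaves set against water-stressed leaves, which came from a shorter stress, KIN2 was the single member past 2-fold, and it was lower in both genotypes. Its values were −1.35 in AhNF-YC-OE, where the level was 0.39 times that under water stress, and −1.24 in wild type, where it was 0.42 times. Over the settings KIN2 ran from −1.47 to −1.29 in AhNF-YC-OE and from −1.34 to −1.08 in wild type, and in both it lay outside the middle 95% of genes. Relative to the median over all genes it ran from −1.47 to −1.12 in AhNF-YC-OE and from −1.34 to −0.92 in wild type, where it was thus not past 2-fold in every setting. That is 1 of 8 genes at least 2-fold lower, beside 3.70% of 26005 genes in AhNF-YC-OE and 4.08% of 26013 in wild type. None was 2-fold higher, beside 3.14% and 3.98%.

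The other 7 genes were between −0.27 and 0.26 in AhNF-YC-OE and between −0.35 and 0.20 in wild type. KIN1 was at 0.22 in AhNF-YC-OE and −0.08 in wild type, so the 2 KIN genes differed by 1.57 and 1.16 on the log2 scale, and by 1.33 to 1.83 and 0.56 to 1.32 over the settings. RD29A was at −0.27 in AhNF-YC-OE and 0.08 in wild type, whereas RD29B stood at 0.05 and 0.03. COR15B was at 0.26 and 0.20, and its AhNF-YC-OE value reached −0.01 in 1 setting. COR15A was at −0.15 and −0.35 at its brightest spot, at −0.04 and 0.04 at the second and at −0.20 and 0.40 at the third, so its spots did not share a sign in wild type. RD22 gave −0.21 and −0.27, and RD20 −0.05 and −0.13.

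Recovery leaves were also set against normal growth, 24 h after water returned. KIN1 was the single member past 2-fold, at 1.20 in AhNF-YC-OE and 1.26 in wild type, beside 14.6% of 26014 genes at least 2-fold higher in AhNF-YC-OE and 16.9% of 26013 in wild type. No member was 2-fold lower at its brightest spot, beside 14.4% and 15.9%. The size of the KIN1 value is uncertain, since its normal growth reading was brighter than only 53.7% of the empty spots in AhNF-YC-OE and 62.5% in wild type, and it ran from 1.20 to 3.61 and from 1.25 to 2.99 over the settings. RD29B stood at 0.82 and 0.61 and KIN2 at 0.38 and 0.62 in AhNF-YC-OE and wild type. RD29A was at 0.15 in AhNF-YC-OE and 0.52 in wild type, and COR15B at 0.39 and 0.60. RD22 gave 0.01 and 0.14, and RD20 0.13 and −0.04. COR15A gave −0.09 and −0.39 at its brightest spot, −0.52 and −0.52 at the second and −1.70 and −1.77 at the third. The third spot was thus past 2-fold lower in both genotypes, from normal growth readings within the brightness of the empty spots. These values share channels with the earlier comparisons between states and are not separate evidence. Median scaling moved the median over all genes to 0.641 in AhNF-YC-OE and 0.79 in wild type. Relative to the median over all genes, KIN1 was higher by 1.16 to 2.89 in AhNF-YC-OE and by 1.17 to 2.29 in wild type over the settings, and COR15B by 0.32 to 0.80 and by 0.52 to 0.84. RD29A lay at 0.04 to 1.02 and 0.43 to 1.19, and KIN2 at 0.04 to 0.38 and 0.27 to 0.61. RD29B lay at 0.06 to 0.80 in AhNF-YC-OE and turned sign in wild type, at −0.22 to 0.54. COR15A, at −1.10 to 0.37 and −1.16 to 0.01, RD22, at −0.45 to −0.02 and −0.19 to 0.07, and RD20, at 0.09 to 0.63 and −0.28 to 0.39, held no sign in at least 1 genotype.

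Whether the genotype ratio itself differed between states was asked by subtracting the ratio of the normal growth array. None of the 8 differences reached 2-fold, beside 0.446% of 26005 genes higher and 0.381% lower for water stress and 0.0269% of 26000 genes higher and 0.312% lower for recovery. For water stress minus normal growth the RD29A difference was −0.01, with a range of −0.23 to 0.66 over the settings, and the others ran from −0.36 for KIN1 to 0.20 for RD29B. For recovery minus normal growth the RD29A difference was −0.37, the lowest of the 8, and stayed between −0.54 and −0.16 over the settings. COR15A had the highest, 0.31, at its brightest spot, while its other spots gave −0.01 and 0.07.

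The lists set beside the 8 genes hold their known regulators and other genes of the same response. None of 8 measured DREB and CBF regulators, 7 ABRE, MYC and MYB regulators or 20 other drought and cold effectors was 2-fold apart between AhNF-YC-OE and wild type on any array, and 1 further effector, RD19, was not measured here. Over all genes at most 0.488% were called higher and 0.388% lower on an array, so this is no result about the lists. MYC2 and MYB2, the factors known to act on RD22, had ratios of −0.05, 0.20 and 0.15 (MYC2) and of 0.40, 0.17 and −0.07 (MYB2) on the 3 arrays. Under normal growth MYB2, like several other genes of these lists, was within the brightness of the empty spots. The list medians were between −0.10 and 0.17.

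Under water stress the effector list held 4 genes at least 2-fold higher and 2 lower in AhNF-YC-OE, and 5 higher and 2 lower in wild type, of 20 measured. Over all genes 13.0% were higher and 13.1% lower in AhNF-YC-OE, and 15.7% and 15.0% in wild type, so these counts are no result about the list. COR47, a dehydrin of the cold and drought response, was at 2.58 in AhNF-YC-OE and 2.70 in wild type. ERD10, another dehydrin, was at 2.06 and 2.13, and at 1.23 and 1.46 when its 3 spots were averaged. ERD6, a sugar transporter of the vacuole, was at −2.18 and −2.60. The median of the list was 0.31 in AhNF-YC-OE and 0.22 in wild type, beside 0.05 and 0.09 over all genes. COR47 and ERD10 were, like KIN2, within the brightness of the empty spots under normal growth.

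Of the regulators under water stress, CBF2, an activator that binds DRE elements, stood at 1.09 in AhNF-YC-OE and 0.95 in wild type. ABF2, which binds ABRE elements, was at 1.44 in AhNF-YC-OE and 1.31 in wild type. ABF3, of the same family, stood at 0.94 and 1.15. MYC2 was at −0.83 in AhNF-YC-OE and −1.07 in wild type. That made 1 of 8 DREB and CBF regulators higher in AhNF-YC-OE and 0 in wild type, and of the 7 other regulators 1 higher in AhNF-YC-OE and 2 higher and 2 lower in wild type. Against the same shares over all genes these counts are no result about the lists either. CBF2 and ABF2, too, were within the brightness of the empty spots under normal growth. Subtracting the normal growth ratio from that of water stress or recovery left no gene of these lists past 2-fold, beside at most 0.446% of all genes higher and 0.381% lower. In recovery over water stress, COR47 was at −1.34 in AhNF-YC-OE and −1.11 in wild type, COR413PM1, a membrane protein of cold acclimation, at −1.41 and −1.36, and CBF1, a relative of CBF2, at −1.22 and −1.34. In recovery over normal growth CBF1 was at −2.03 in AhNF-YC-OE and −2.09 in wild type.

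**Figure D5:**
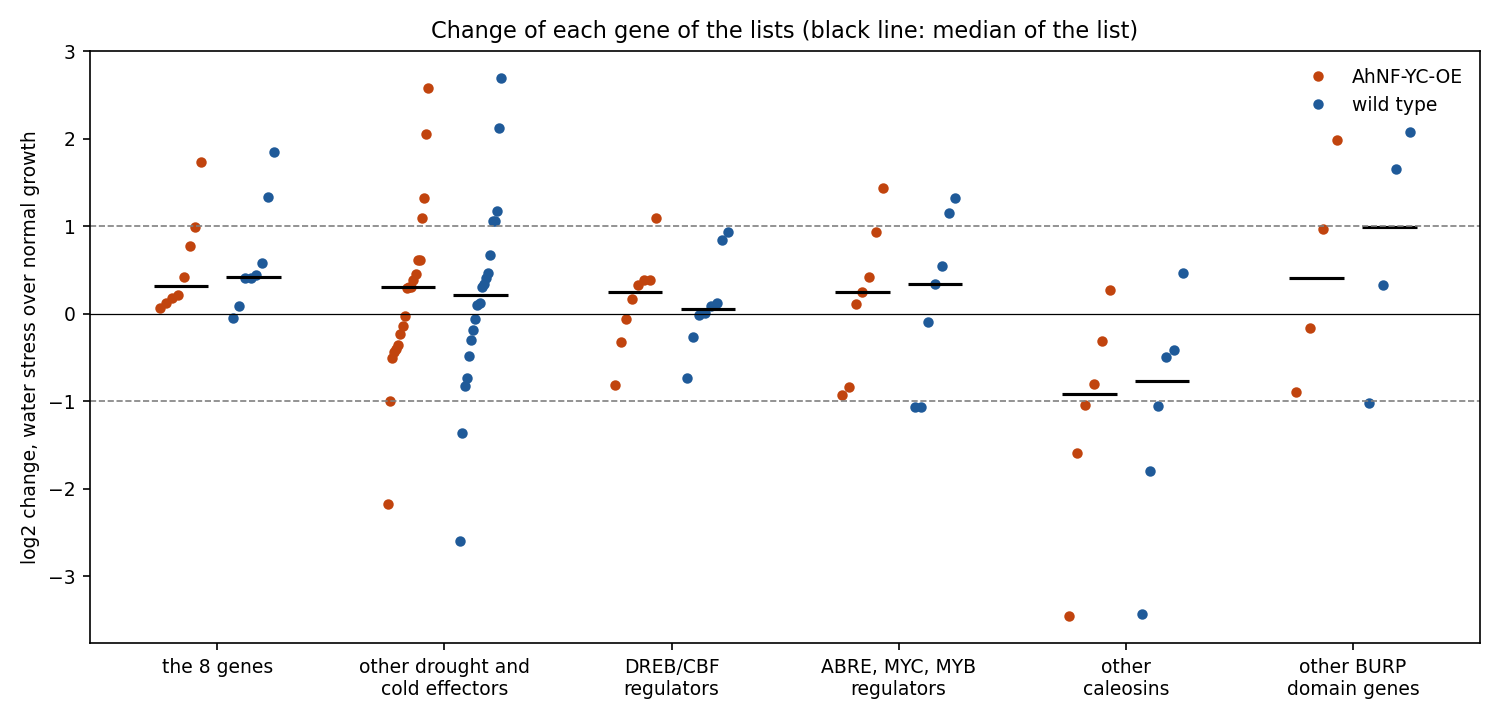
Log2 change of single genes, water stress over normal growth, in AhNF-YC-OE and wild-type leaves for the 8 genes and 5 lists; each point is a gene, black lines are list medians and dashed lines mark 2-fold. The 8 genes have medians of 0.33 in AhNF-YC-OE and 0.43 in wild type, while the caleosins other than RD20 have medians of −0.92 and −0.77.

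RD29A and RD29B were also compared with all other genes by the shape of their levels over the 6 channels, as the distance between mean-centred log2 profiles among 25996 genes. The genes nearest to RD29A were AT5G64670 at a distance of 0.149, AT1G12080 at 0.165 and NF-YB3, an NF-YB subunit of the NF-Y factor, at 0.196, with correlations of 0.982, 0.977 and 0.97. Those nearest to RD29B were AT3G10020 at 0.064, AT5G64170 at 0.085 and AT4G04260 at 0.086, with correlations of 0.997, 0.995 and 0.996. The 6 channels are pairs on 3 arrays and share their scaling, so these values describe likeness over few points and carry no test. None of these nearest genes was kept with median scaling or with the authors' values. RD29B itself was 3855th in nearness to RD29A, with a correlation of 0.54. Of the 8 genes COR15B came nearest to either by distance, at 0.65 from RD29A and 0.49 from RD29B. By correlation KIN1 was the member most like RD29B, at 0.91, against 0.81 for COR15B. RD20 had a correlation of −0.52 with RD29A.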

How the data were processed

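The mean pixel intensity of each spot, its local background and the background SD in both channels were deposited as scanner output, per the file headers, and the authors also deposited a normalized intensity per channel and the log2 of the AhNF-YC-OE to wild-type ratio. Neither the scanner nor the authors' normalization is stated in the sources used here. Where the label fields name Cy3 and Cy5, the labelling protocol names Alexa dyes. Locus codes are those of the array annotation, and the RefSeq table (TAIR10.1) listed 25818 of the 26017 loci.

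Here the intensities were background-corrected (normexp, offset 50), ratios were fitted by loess within arrays (weight 0 for control and empty spots), and single channels were scaled with Aquantile (limma 3.58.1, R 4.3.3; Python 3.11.15, pandas 2.3.3). The brightest spot represented a locus. A gene was counted when a channel compared lay above its local background mean plus 2 SD. All 11 comparisons were made on the whole array, and log2 values of at least 1 in size were called. The ratio step was tested on simulated data, in which all changed genes had true ratios past 2-fold. Smaller ratios and changes between arrays were not part of that test. With 1 array per state no p-value is given, and precision is limited by how few arrays there are.

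The members, the 5 lists and the markers were chosen with earlier results of these data known. All 8 members are named in every comparison, and of other lists up to 3 genes at least 2-fold apart, plus MYC2 and MYB2, which were added after their values were seen, and the 3 genes nearest in pattern to RD29A and to RD29B. Alternatives changed the background correction, the scaling, the spot summary, the starting values and the filter on dim spots. Promoter and protein sequences were not analysed here.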

Additional observations from a re-analysis of the deposited data

How the results depend on the processing

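With 1 array per state no array could be left out and the number of plants behind each value is unknown. No paired analysis was possible because each state has 1 array, whose replicate number only names it. Between genotypes, 0 of the 8 genes were past 2-fold in every setting except median centring, which gave 1 under normal growth (RD29A), 3 under water stress (RD29A at 1.88 and COR15A at 1.1 higher, KIN1 at −1.49 lower) and 1 in recovery (RD29A), and 1 (KIN1) for the ratio of water stress minus normal growth. Median centring leaves the dependence of the ratio on brightness in place. For water stress over normal growth in AhNF-YC-OE, the count was 2 without background correction and 2 with plain subtraction, where KIN1 joined KIN2. With median scaling of each channel it was 6 in AhNF-YC-OE and 7 in wild type, and with the authors' normalized values, scaled to the median of each channel for this comparison, 5 and 5. For recovery over normal growth these settings gave 5 and 5 genes, and 4 and 4. Both move the median of all genes upwards, as given above. The single call for recovery over water stress, KIN2, was made in each genotype under all settings. The nearest genes in pattern, an alternative set chosen after seeing the data, shared 0 of 6 with median scaling and 0 of 6 with the authors' values. No value was called in opposite directions by 2 settings. Of the single-gene values, 572 kept their side of 2-fold and 39 did not, and of the counts of genes and the likeness result, 66 stayed within 1.5 times and 16 did not. KIN1, KIN2, RD22 and RD29B were within the brightness of empty spots under normal growth, which limits their fold changes from that state; a filter on that brightness left 4 of the 8 genes for the genotype ratio under normal growth.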

Other observations

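Other caleosins were measured beside RD20. Of 6 caleosins other than RD20, 3 were at least 2-fold lower under water stress than under normal growth in both genotypes, and none was higher, beside 13.1% of all genes lower in AhNF-YC-OE and 15.0% in wild type. AT1G70680 (CLO6) was read at 17447, 456 and 259 units in AhNF-YC-OE under normal growth, water stress and recovery, against 21041, 1026 and 513 units in wild type. Its log2 change under water stress was −3.45 in AhNF-YC-OE and −3.42 in wild type, and in recovery over normal growth −4.53 and −4.49. RD20 itself stood at 0.18 and 0.09 for water stress over normal growth. AT1G23240 (CLO5) was at −1.59 and −1.80, but at −0.51 and −0.32 when its 3 spots were averaged. CLO4 was at −1.04 and −1.05, but at −0.34 and −0.48 with the authors' normalized values. Its normal growth readings were within the brightness of the empty spots. The differences between these genes and RD20 were not tested. No caleosin was 2-fold apart between genotypes on any array, beside at most 0.488% of all genes higher and 0.388% lower, so this is no result about the caleosins.

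Of 4 BURP domain genes other than RD22, 1 was at least 2-fold higher under water stress and 0 lower in AhNF-YC-OE. In wild type 2 were higher and 1 lower. Over all genes 13.0% were higher and 13.1% lower in AhNF-YC-OE, and 15.7% and 15.0% in wild type, so these counts are no result about the list. PG2, a subunit of a polygalacturonase, was at 1.99 in AhNF-YC-OE and 2.08 in wild type, where RD22 was at 0.23 and 0.41. USPL1 was at −1.02 in wild type, but at 0.04 with the authors' normalized values. PG2, USPL1 and RD22 were within the brightness of the empty spots under normal growth. PG3 was read at 35493, 54954 and 55114 units in AhNF-YC-OE, against 18746, 34010 and 40787 units in wild type. Its genotype ratio was 0.89, 0.20 and 0.11 on the 3 arrays, and its change under water stress was 0.97 in AhNF-YC-OE and 1.66 in wild type. Like RD29A, PG3 had a higher AhNF-YC-OE reading on every array, and both genes lay among bright spots. The same was true of COR15B and of the brightest COR15A spot. Across the brightest 5% of spots the median-centred ratio was 0.65, 1.19 and 0.78, so this trait was not particular to PG3 and RD29A.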
